A study of Mus musculus with 144 samples.

Results

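Tlx is an orphan nuclear receptor encoded by Nr2e1. In the adult brain it is made by neural stem cells of the subventricular zone and the dentate gyrus, and it is needed for these cells to keep dividing and renewing themselves. It acts mainly as a repressor: it binds a short DNA site and brings in corepressors, among them the histone demethylase Kdm1a, histone deacetylases and the atrophins. Targets reported for it include the cell cycle brake Cdkn1a and astrocyte genes such as Gfap. Because few other cells of this niche are thought to make it, a fluorescent reporter of Tlx can serve to sort neural stem cells.

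The 2 rows described here are Nr2e1 and gfp.exon, of 37621 rows in the table of transcript abundances. Nr2e1 was found by matching its Ensembl gene ID (ENSMUSG00000019803) to the symbol, and gfp.exon, the row of the green fluorescent protein message, by its name. Both were picked by name, with earlier results of these data known. The labels do not describe the reporter, its promoter or the sorting gate, so gfp.exon was read as the RNA of a Tlx reporter from its name and from the sort for cells expressing Tlx.

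The study sequenced single mouse cells sorted from the subventricular zone for Tlx expression, and pools of 500 such cells. The labels give a stage to 117 single-cell libraries, aNSC or qNSC (in this field's usage, activated and quiescent neural stem cells), call 14 more filtered out, and give 13 pools no stage. Of the qNSC libraries of 5 weeks, 2 were nearly identical and both listed at 0 for both rows. They were averaged, which left 58 aNSC and 58 qNSC cells. The 5-week mice gave 32 aNSC cells, 16 qNSC cells and 9 pools, the 7-week mice 16, 23 and 2, and the 7-month mice 10, 19 and 2. Strain, sex, animal and number of pooled animals were not given in the labels. Titles begin with a series and a set, here called title sets: A3_1 to A3_3 hold the 5-week cells, A2_1 to A2_3 the 7-week cells and A1_1 to A1_3 the 7-month cells. The labels do not say what a set stands for. Cells of a set may share a source and are not independent replicates by any label. Conditions were thus compared over the 9 title sets or over ages. The comparison of the 5-week sets with each other used single pools as units instead. P-values measure the spread between the units used (sets, ages or pools), which may be technical.

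Values are in TPM, the share of a library's transcripts that belong to a gene after correction for transcript length, which keeps no read depth. A gene was called detected at 1 TPM or more, and averages were taken of log2(TPM + 1). The number of detected genes ran from 1621 to 3842 in aNSC cells (median 2752), from 1016 to 4161 in qNSC cells (median 2195) and from 13497 to 14221 in pools. How the authors assigned the stages is not given in the sources used here, and they may have used these values. Of 18 tested astroglial genes 17 were lower in aNSC and 0 higher, against 3.82% of all genes lower. Of 11 tested activation and progenitor genes 8 were higher and 0 lower, against 19.8% of all genes higher. Among the 10 7-month aNSC cells, 2 cells of A1_3 stood apart: the mean of their log2(TPM + 1) over 10 oligodendrocyte genes was 10.6 and 10.5, and Nr2e1 and gfp.exon were listed at 0 in the first and stood at 3.12 and 1.12 TPM in the second. They were kept as labelled, and without them the stage differences (aNSC minus qNSC, log2 scale) were 0.98 (limma adjusted p = 0.184) for Nr2e1 and 1.53 (adjusted p = 0.0546) for gfp.exon.

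The stretch of genome around the start of Nr2e1 is shown because the site reported for binding by Tlx itself, AAGTCA, lies in it. The RefSeq promoter window holds 250 bases before and 50 after the start. Its first 263 bases, on the minus strand of chr10:42583578-42583840 in GRCm38.p6, read 5′ to 3′ with that site in capitals:

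Nr2e1 promoter: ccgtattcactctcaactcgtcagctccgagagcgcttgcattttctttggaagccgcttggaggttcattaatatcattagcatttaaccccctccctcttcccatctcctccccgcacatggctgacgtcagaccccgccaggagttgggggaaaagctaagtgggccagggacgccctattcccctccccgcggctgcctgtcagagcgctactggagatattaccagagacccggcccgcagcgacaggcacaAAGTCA

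AAGTCA was searched on both strands (TGACTT on the other) and was found 1 time, on the strand of the gene, from 8 to 13 bases into the transcript. Of 27025 promoter windows of 300 bases, 4087 (15.1%) held it. Of the genes reported as Tlx targets or partners with a window, it lay in 1 of 5 repressed genes (Gfap), 0 of 2 activated genes and 1 of 8 corepressor genes (Kdm1a). A match is a description of the letters only. No annotation of the build used by the authors was at hand, and these coordinates belong to GRCm38.p6 alone.

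Nr2e1 RNA was found in about as many cells as its pool level goes with, and GFP RNA in far fewer than its listed pool level goes with. Nr2e1 was detected in 61 of 116 cells (52.6%, exact binomial 95% interval 43.1% to 61.9%) and gfp.exon in 50 (43.1%, 33.9% to 52.6%). Intervals cover counting error only. Over all cells Nr2e1 ran from 0 through a median of 1.73 TPM to 1673 TPM, and gfp.exon from 0 through 0.51 TPM to 1173 TPM. High levels were found in a minority of cells: 26 cells held Nr2e1 at 100 TPM or more and 21 held gfp.exon at that level. Nr2e1 was listed at 0 in 25 cells and gfp.exon in 48, and both were listed at 0 in 19 cells.

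In the pools, by contrast, both were present in every library. Nr2e1 averaged 216 TPM and gfp.exon 659 TPM over the 7 title sets with pools. Among the 405 genes at a like pool level (173 to 270.5 TPM), the median gene was detected in 50% of cells (quartiles 41.4% and 61.2%). Nr2e1 stood in the middle of them, with 228 detected in fewer cells and 165 in more. Of the 118 genes near the pool level of gfp.exon (527 to 824 TPM), the median gene was detected in 81.0% of cells (quartiles 74.4% and 87.9%), 117 in more cells than gfp.exon and 1 in fewer. At 10 TPM the order was alike: Nr2e1 was in 37.9% of cells against a median of 35.3%, and gfp.exon in 29.3% against 63.8%, again with 117 genes higher. How the authors defined the gfp row, and its length, is not given in the sources used here. A wrong length would shift its TPM in cells and pools alike, and with it the pool level at which it was set beside other genes. The size of the gap in detection to genes near 659 TPM thus depends on that length, and how far was not tested. In the fit of pools against cells given below, gfp.exon was higher in pools by 3.59 on the log2 scale. The median over all genes there was 1.74. The gfp.exon share of 43.1% lies within the quartiles of genes near the pool level of Nr2e1 (41.4% and 61.2%).

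**Figure D1:**
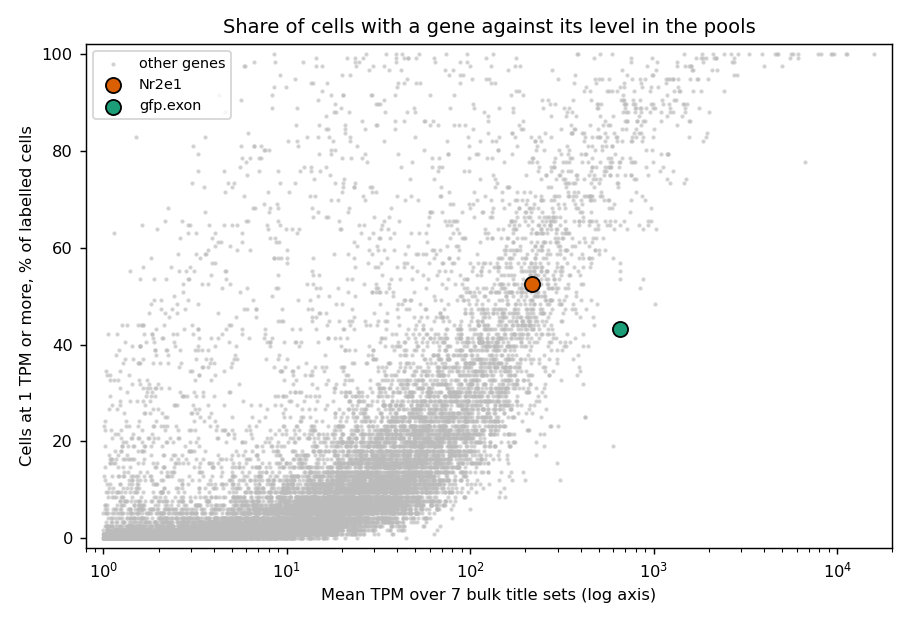
Each point is a gene at 1 TPM or more in the pools; the x axis is its mean TPM over 7 bulk title sets (log axis) and the y axis the percent of 116 cells with at least 1 TPM. Nr2e1, at 216 TPM and 52.6% of cells, lies inside the band of other genes, and gfp.exon, at 659 TPM and 43.1%, lies below it.

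Cells with either message also held more detected genes. Among aNSC cells the median was 2953 genes with Nr2e1 and 2547 without it, and among qNSC cells 2531.5 and 1970.5. For gfp.exon the medians were 3003.5 and 2526 in aNSC, and 2966.5 and 2042.5 in qNSC. The part of library quality in detection was not tested.

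The receptor and the reporter were found together more often than their separate shares give, but each was often found alone. Both were detected in 39 of 116 cells (33.6%), where the product of their shares gives 26.3 cells. This excess over all cells, 10.95 percentage points, takes in differences between title sets. Of the cells with Nr2e1, 63.9% also held gfp.exon, and of the cells with gfp.exon, 78% also held Nr2e1. The excess over the product, taken within each title set, averaged 5.81 percentage points ± 4.05 (SD, n = 9 sets). It was above 0 in 7 sets and at 0 in the other two (exact two-sided sign-flip permutation test, p = 0.0156, the smallest possible with 2 sets at 0). With detection at 10 TPM the mean excess was 3.19 points, above 0 in 5 sets and below in 2 (exact permutation p = 0.109), so the call did not hold at that level.

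The cells in which one message was abundant and the other missing show the size of the mismatch. In 11 cells Nr2e1 was at 100 TPM or more with gfp.exon under 1 TPM, and in 6 cells gfp.exon was at 100 TPM or more with Nr2e1 under 1 TPM. Both were at 100 TPM or more in 11 cells. The widest case was a 7-month qNSC cell of A1_3 with Nr2e1 at 1673 TPM and gfp.exon at 0. In the other direction, a 5-week aNSC cell of A3_2 had gfp.exon at 836 TPM and Nr2e1 at 0.69 TPM. These mismatched cells were of both stages: 8 of the 17 were aNSC and 9 qNSC, and they came from 8 of the 9 title sets. In the 20 cells with both at 10 TPM or more, the ratio of gfp.exon to Nr2e1 ran from 0.436 through a median of 1.10 to 5.58.

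**Figure D2:**
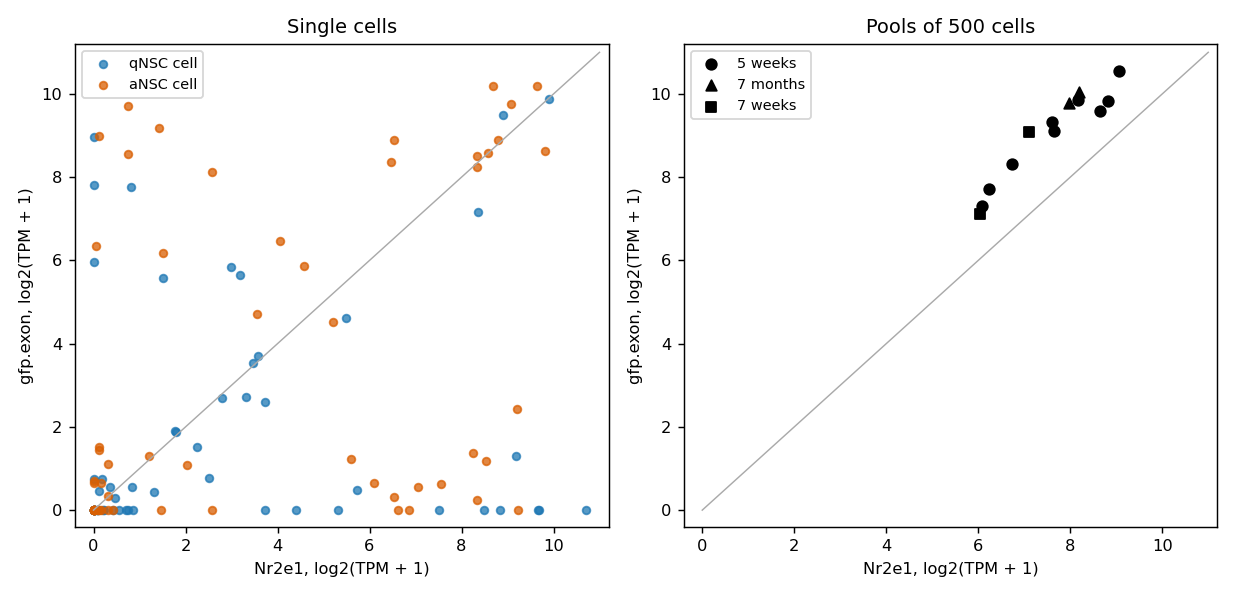
Left, single cells (117 libraries), right, pools of 500 cells; the x axis is Nr2e1 and the y axis gfp.exon, both as log2(TPM + 1), and the grey line marks equal values. The 13 pools lie along 1 line above equality, while cells lie along both axes as well as near the line.

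In pools the 2 messages moved together closely. Fewer cells of a type and less RNA per cell cannot be told apart in a pool. At 7 months Nr2e1 was at 293 TPM in the A1_1 pool and 249 TPM in the A1_2 pool, and gfp.exon at 1052 and 885 TPM. At 7 weeks Nr2e1 was at 136 TPM in A2_2 and 65.1 TPM in A2_3, and gfp.exon at 540 and 138 TPM. At 5 weeks the 3 pools of A3_1 held Nr2e1 at 399, 451 and 536 TPM, those of A3_2 at 194, 199 and 288 TPM, and those of A3_3 at 66.7, 74.7 and 105 TPM. In the same order, gfp.exon was at 769, 916 and 1506 TPM, at 639, 550 and 924 TPM, and at 158, 210 and 320 TPM. The pool highest in Nr2e1 within each 5-week set was also the highest in gfp.exon.

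Over the 7 title sets the correlation of log2 levels was r = 0.954 (exact permutation p = 0.000397, adjusted over 3 relations 0.00119) and Spearman's rho 0.964 (exact permutation p = 0.00278). Without the 2 sets farthest from the median of Nr2e1 r was 0.895. Among the 9 pools of 5 weeks, deviations from the set mean had r = 0.941, given as a description. Ages hold too few sets for a value within each age. The level in cells followed the level in pools less closely over the same 7 sets: r was 0.21 for Nr2e1 (exact permutation p = 0.683, adjusted 0.683) and 0.71 for gfp.exon (exact permutation p = 0.0643, adjusted 0.0964). Spearman's rho was 0.607 (exact permutation p = 0.167) and 0.357 (exact permutation p = 0.444). Without the 2 farthest sets r was 0.754 and -0.0251, so both values depend on those sets.

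The reporter stood above the receptor in every pooled set and, from the mean TPM of cells, in 3 of 7 sets. A wrong length for the gfp row would shift this difference, so its side of 0 rests on the length used. The log2 difference, gfp.exon minus Nr2e1, averaged 1.57 ± 0.34 (SD, n = 7 sets) in pools and was above 0 in 7 of 7 sets (exact permutation p = 0.0156, the smallest possible). From the mean TPM of the cells of the same sets it averaged -0.61 ± 2.77, ran from -5.89 to 2.92 and was above 0 in 3 sets. The lowest value was that of A2_3, whose cells averaged 0.247 TPM for gfp.exon and 73.1 TPM for Nr2e1, with 1 cell at 824 TPM. The negative mean thus leans on that set. The 2 differences were set against each other after the data were seen: they were 2.19 ± 2.56 apart, with pools higher in 6 of 7 sets (exact permutation p = 0.0469). That call was lost when any of A1_1, A2_2, A2_3, A3_1, A3_2 or A3_3 was left out (values 1.91, 2.35, 1.39, 2.29, 2.40 and 2.23, p from 0.0625 to 0.0938).

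Across all genes, the pools were set against the mean TPM of the labelled cells of their set with limma on 12295 genes. This main fit did not pair pools and cells by title set. Most genes were higher in pools, with a median difference of 1.74 on the log2 scale. Of the 2 rows, gfp.exon was called, at 3.59 ± 0.99 (SE, adjusted p = 0.00856), and Nr2e1 was not, at 1.42 ± 0.74 (SE, adjusted p = 0.12), against 47.3% of all genes called in either direction. With the mean of log2 values over cells in place of the log2 of the mean, Nr2e1 was called too, at 4.34. That mean cannot exceed the log2 of the mean, so the setting lowers or keeps the cell value of every gene. Many more genes were called higher in pools under it, with counts given in the last section. Set beside the median of all genes, gfp.exon lay 1.85 above it and Nr2e1 0.32 below it.

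Neither message separated the stages. Nr2e1 was detected in 33 of 58 aNSC cells (56.9%, 43.2% to 69.8%) and 28 of 58 qNSC cells (48.3%, 35.0% to 61.8%). It ran from 0 through a median of 2.48 to 896 TPM in aNSC and from 0 through 0.80 to 1673 TPM in qNSC, so the groups overlapped over nearly the whole range. gfp.exon was detected in 30 aNSC cells (51.7%, 38.2% to 65.0%) and 20 qNSC cells (34.5%, 22.5% to 48.1%), with medians of 1.14 and 0.12 TPM and maxima of 1173 and 939 TPM. By age, Nr2e1 was in 16 of 32 aNSC and 6 of 16 qNSC cells at 5 weeks, in 8 of 16 and 7 of 23 at 7 weeks, and in 9 of 10 and 15 of 19 at 7 months. For gfp.exon the counts were 16 and 4 cells at 5 weeks, 8 and 4 at 7 weeks, and 6 and 12 at 7 months.

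Taken over the 9 title sets, the share of cells with Nr2e1 averaged 62.9% ± 34.7 (SD) in aNSC and 50.2% ± 29.7 in qNSC and was higher in aNSC in 5 sets and lower in 3 (exact sign-flip permutation p = 0.188, adjusted over 5 measures 0.264). The share with gfp.exon averaged 48.1% ± 30.8 and 36.0% ± 26.96, higher in 6 sets and lower in 2 (exact permutation p = 0.18, adjusted 0.264). The share with both averaged 39.7% ± 30.4 and 29.2% ± 27.5 (exact permutation p = 0.211, adjusted 0.264). The level of Nr2e1 was higher in aNSC in 4 sets and lower in 5 (difference 0.85 ± 2.49 (SD) in log2(TPM + 1), exact permutation p = 0.324, adjusted 0.324). The level of gfp.exon was higher in 7 sets and lower in 2 (0.96 ± 1.58 (SD), exact permutation p = 0.0938, adjusted 0.264). The spread between sets exceeded the difference between stages for all 5 measures. Sets counted equally, though a stage within a set held from 2 cells (aNSC of A1_1) to 13 (aNSC of A3_2). Counting error thus enters that spread.

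The fit over all genes, with the mean of each stage at each age as the unit and age as a block, gave the same picture. Called in it were 0 of the 2 rows, against 19.8% of 4214 genes called higher in aNSC and 3.82% called lower. The difference was 0.80 ± 0.53 (SE) for Nr2e1 (limma adjusted p = 0.299) and 1.32 ± 0.53 for gfp.exon (limma adjusted p = 0.11), and the median gene differed by 0.71. Under quantile normalization, which moved the median of all genes to 0.13, Nr2e1 was at -0.12 and gfp.exon at 0.66.

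Genes tied to Tlx were mostly too low in single cells to test, and the calls among them depended on the fit. Of the corepressor, target, receptor and neural transcription factor lists, 9 genes were called in all, beside 19.8% of all genes called higher and 3.82% lower. With no filter, limma called 0 of 37621 genes (1912 at an unadjusted p under 0.05), and with the log2 of the mean TPM 0 of 9989 (1150 at that p). Quantile normalization and the fit without the age block each kept 5 of the 9 calls. Without the 5-week cells 3 of 8 were called, without the 7-week cells 1 of 9 and without the 7-month cells 6 of 9.

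Of 11 corepressor genes 4 could be tested and 1 was called: Hdac2, a histone deacetylase, was higher in aNSC by 1.503 (adjusted p = 0.0496), against 19.8% of all genes. Its adjusted p was above 0.05 under every alternative that tested it other than leaving out the cells high in oligodendrocyte genes (0.0361), and ran up to 0.678. The other three were Hdac1 at 1.67 (adjusted p = 0.0942), Hdac3 at 0.67 and Bcl11a, a zinc finger partner of Tlx, at 1.39 (adjusted p = 0.0734). Their median was 1.45, against 0.71 over all genes tested. Kdm1a was detected in 16.4% of cells and was not tested, as was Rere, an atrophin, also in 16.4%.

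Of 8 genes reported as repressed by Tlx, Aqp4, the astrocyte water channel, could be tested and was lower in aNSC by -2.87 (adjusted p = 0.0255). Of all genes 3.82% were called lower. Without 1 age the limma adjusted p of Aqp4 was 0.0521 to 0.0557, and without the 7-month cells its difference was -1.80. The astrocyte gene S100b was detected in 8.62% of cells, Hes1 in 14.7% and Cdkn1a in 7.76%. Of 4 genes reported as activated by it, Sirt1, a deacetylase, could be tested, at -0.17 (adjusted p = 0.808), while Wnt7a and Ccnd1 were in 6.03% and 4.31% of cells. Of 25 other nuclear receptors 3 could be tested and 0 were called: Rorb at -1.46 (adjusted p = 0.081), Nr1d1 at -0.55 and Nr2c2, a testicular receptor, at 0.40. Their median was -0.55, and Nr1h2, untested, was in 17.2% of cells. Nr2e1 was thus found in more cells than any of the 25 (31.9% at most, for Rorb).

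Of 26 transcription factors of neural stem cells and their progeny 15 could be tested, and 4 were higher in aNSC and 3 lower. Of all genes 19.8% were called higher and 3.82% lower. The median of the list was 0.29, against 0.71 over all genes tested. Higher were Dlx1 (3.14), a factor of the interneuron lineage, Nfix (2.55), Nfib (2.24) and Sox4 (1.88). Lower were Id2 (-2.95) and Id3 (-2.01), inhibitors of basic helix-loop-helix factors, and Sox9 (-2.85), a glial and stem cell factor. Among the most abundant of the others, Nfia was at 0.75, Tcf4 at 1.48, Meis2 at -0.05 and Sp8 at 1.41, with adjusted p from 0.0727 to 0.965.

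Ages could not be told apart either, and the detection level decided what a count by age showed. In labelled cells and pools age follows the title series, so a difference between ages cannot be told apart from one between series. Nr2e1 was detected in 45.8% of 5-week cells, 38.5% of 7-week cells and 82.8% of 7-month cells at 1 TPM, but in 41.7%, 35.9% and 34.5% at 10 TPM. The 7-month surplus lay between 1 and 10 TPM: 9 of 10 cells of A1_2 and 4 of 11 cells of A1_3 held Nr2e1 in that range, against 4 cells in the other 7 sets together. These 2 sets also held the most genes in that range, with medians of 1530.5 and 1267 per cell against 679 to 957 in the other sets. The part of this band of low values in the detection of Nr2e1 was not tested. For gfp.exon the shares were 41.7%, 30.8% and 62.1% at 1 TPM and 31.2%, 20.5% and 37.9% at 10 TPM.

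Weighted equally over stages and sets, the share of cells with Nr2e1 was 47.2% ± 30.3 (SD, n = 3 sets) for the 5-week cells, 37.4% ± 21.6 for the 7-week cells and 85.1% ± 13.2 for the 7-month cells (exact permutation p of the sum of squares between ages = 0.136, adjusted over 4 measures 0.543). The level was 3.53 ± 2.95, 2.84 ± 1.55 and 3.52 ± 1.499 (exact permutation p = 0.907, adjusted 0.907). The gfp.exon share and level had exact permutation p of 0.546 and 0.779 (both adjusted 0.907). In the 5-week pools Nr2e1 averaged 257 TPM ± 192 (SD, n = 3 sets), in the 7-week pools 101 ± 50.4 (n = 2) and in the 7-month pools 271 ± 30.96 (n = 2), and gfp.exon 666 ± 419, 339 ± 285 and 968 ± 118 TPM.

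In limma on 13668 genes over the 7 pooled sets, neither row was called in any of 3 age contrasts. Called were 0.0366% of genes between 7 and 5 weeks, 0.0805% between 7 months and 5 weeks and 0.0732% between 7 months and 7 weeks. The widest differences of the 2 rows were between 7 months and 7 weeks, 1.51 ± 0.77 (SE, adjusted p = 0.487) for Nr2e1 and 1.82 ± 0.84 (adjusted p = 0.451) for gfp.exon. The 5-week sets alone ran from 82.2 to 462 TPM for Nr2e1, a wider range than that of the age means.

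**Figure D3:**
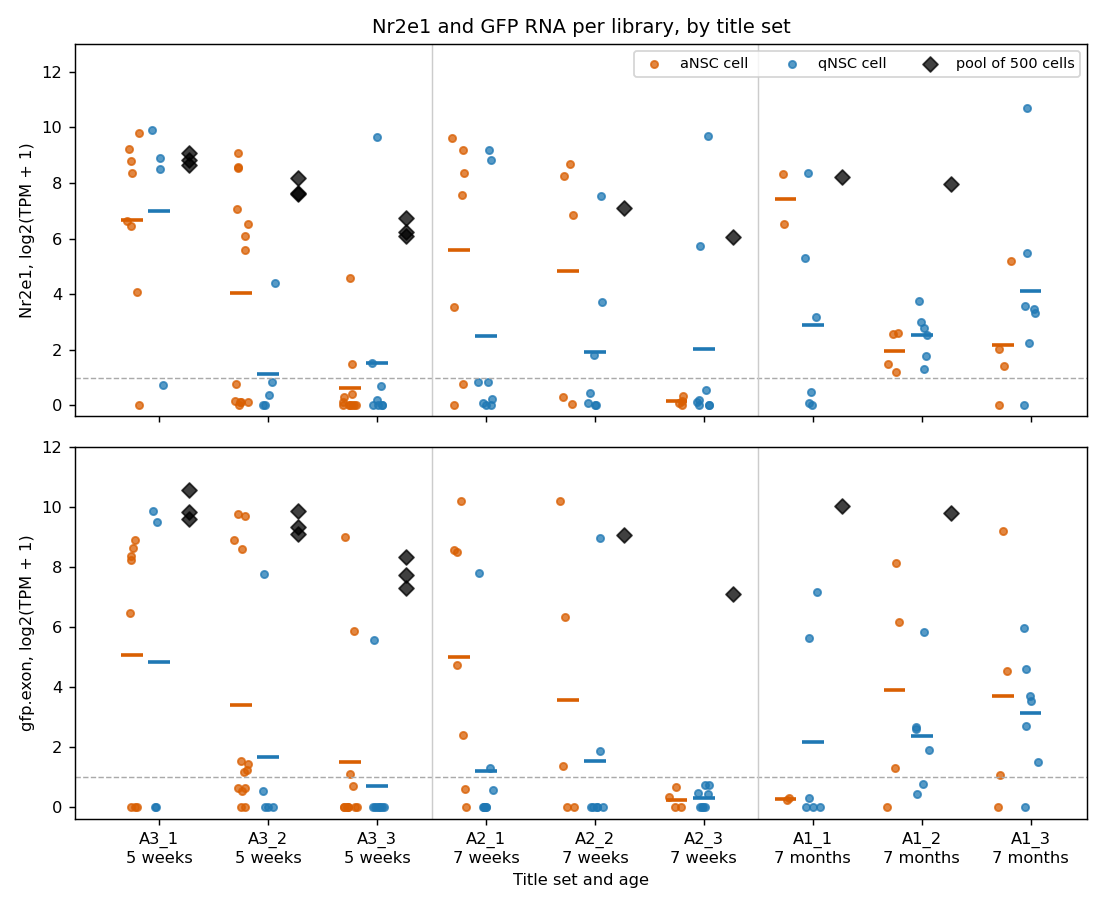
Nr2e1 (top) and gfp.exon (bottom) in every labelled library, as log2(TPM + 1), by title set; orange points are aNSC cells, blue points qNSC cells, short bars their means, black diamonds pools of 500 cells, and the dashed line is 1 TPM. Pools of A3_3 lie below those of A3_1 in both rows, the cells of A1_2 and A1_3 fill the range between 1 and 10 TPM, and no cell of A2_3 reaches 1 TPM for gfp.exon.

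Both rows also differed between title sets of 1 age, a comparison chosen after the data were seen. In the 5-week pools Nr2e1 ran from 399 to 536 TPM in A3_1, from 194 to 288 TPM in A3_2 and from 66.7 to 105 TPM in A3_3. How many of all genes part the 3 sets in this way was not counted. For gfp.exon A3_1 and A3_2 overlapped and A3_3 lay below both. In limma with pools as units, Nr2e1 was lower in A3_3 than in A3_1 by -2.49 ± 0.26 (SE, 5.63-fold, adjusted p = 0.000598) and gfp.exon by -2.21 ± 0.35 (4.62-fold, adjusted p = 0.00429). Both of the 2 rows were thus called lower, against 7.58% of 13786 genes lower and 9.34% higher, and 94 genes had a more negative difference than Nr2e1. Between A3_2 and A3_1, where 3.54% of genes were called, neither row was: -1.04 (adjusted p = 0.0671) and -0.57 (adjusted p = 0.445).

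Between A3_3 and A3_2, where 1.47% of genes were called, Nr2e1 was called at -1.45 (adjusted p = 0.0365) and gfp.exon was not, at -1.64 (adjusted p = 0.0596). The call for Nr2e1 was lost when any 1 of the 9 pools was left out (adjusted p from 0.0533 to 0.0977). Pools of a set may share mice, in which case these p-values are too small.

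Markers of other cells moved along the same sets. The summed TPM of 12 neuroblast genes was 651 to 804 in A3_1 pools, 3264 to 3541 in A3_2 and 5450 to 6252 in A3_3, and 11 of the 12 were called higher in A3_3 than in A3_1 and 0 lower (median 3.44, against 0.01 over all genes). Dcx, a microtubule protein of migrating neuroblasts, went from 11.98 to 22.5 TPM in A3_1 to between 241 and 257 TPM in A3_3. The 7 oligodendrocyte precursor genes summed to 1.40 to 4.27 TPM in A3_1, 0.85 to 5.38 in A3_2 and 56.1 to 99.6 in A3_3, with 4 of 5 tested genes higher and 0 lower. Sox10, Bmp4 and Neu4 of that list were at 0 in every A3_1 pool. Their part in the lower Nr2e1 and gfp.exon of A3_3 was not tested.

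Stem cell lists did not move as 1 block. The 20 astroglial genes summed to 11975 to 15347 TPM in A3_1 and 12734 to 13912 in A3_3, with 8 higher, 3 lower and a median of 0.35. Among them Gjb6, a connexin, was higher by 3.14, and Gfap, the astrocyte filament protein, lower by -2.35. Of 15 activation and progenitor genes 2 were higher and 5 lower (median -0.55). Among the lower ones were the cell cycle genes Cdk1 (-1.49), Ccnb1 (-1.43) and Top2a (-0.83), and the receptor gene Egfr (-0.93). Ependymal genes, with 3 of 7 lower and 0 higher, summed to 100 to 148 TPM in A3_1 and 55.6 to 65.7 in A3_3, and Tmem212 was at 0 throughout both.

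Counts in these lists stand beside 9.34% of all genes higher and 7.58% lower. Of the lists tied to Tlx, 3 of 7 tested genes reported as repressed were higher in A3_3 and 1 lower (median 0.78). S100b (4.18), Aqp4 (2.73) and Tet3 (1.42) were higher, and Gfap was lower. Of 11 corepressor genes Bcl11a (1.28) and Hdac2 (0.78) were higher and Hdac1 (-0.80) lower (median 0.45). Of 21 tested nuclear receptors 2 were higher and 0 lower, a share near the 9.34% of all genes higher: Nr2f2 (2.57), a receptor of interneuron lineages, and Esrrg (2.22), an estrogen-related receptor (median 0.09). Of 26 transcription factors of neural stem cells and their progeny 9 were higher and 5 lower (median 0.52). Sp8 (4.06), Olig1 (3.75) and Dlx1 (1.71) were among the higher, and the lower ones were Hes5 (-1.47), Pax6 (-1.40), Emx2 (-1.32), Id1 (-1.28) and Lhx2 (-1.28).

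Genes beside Nr2e1 on the chromosome in GRCm38.p6 were Afg1l, Snx3, Ostm1 and Sec63. Of these Snx3, a sorting nexin, was lower in A3_3 than in A3_1 by -0.66 (adjusted p = 0.0407). Afg1l was at -0.38, Ostm1 at -0.82 and Sec63 at 0.51, with adjusted p from 0.102 to 0.71.

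**Figure D4:**
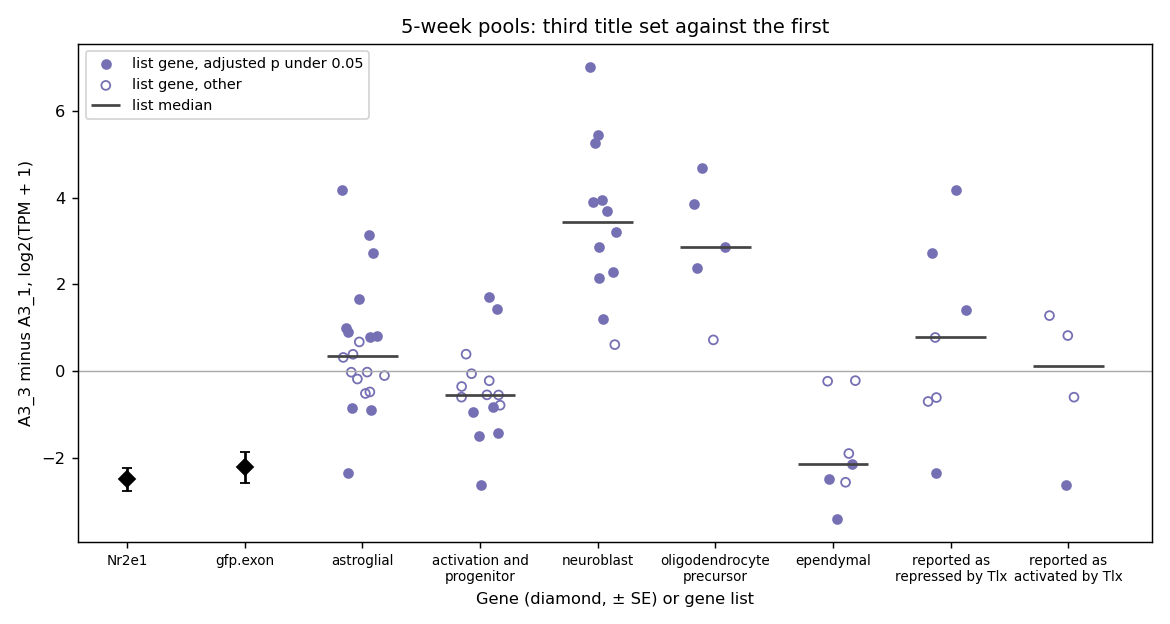
Differences between the 5-week pools of A3_3 and A3_1 (3 pools each) in log2(TPM + 1). Black diamonds with bars are Nr2e1 and gfp.exon ± SE, circles are genes of each list (filled where the limma adjusted p is under 0.05), and short lines are list medians. Both rows lie below -2, neuroblast and oligodendrocyte precursor genes above 0, and astroglial genes on both sides.

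In cells, sets with the same number were grouped across series, also after the data were seen, although the labels do not say what the number stands for. Over the 3 series, the Nr2e1 level averaged 5.35 ± 1.41 (SD, n = 3 sets) in the first sets, 2.74 ± 0.58 in the second and 1.80 ± 1.16 in the third, and it was lower in the third set than in the first in 3 of 3 series and ran in order in 2. After adjustment it did not pass. The exact permutation of sets within series gave p = 0.0278, or 0.139 adjusted over the 5 measures, with 0.00926 the smallest possible. For gfp.exon the level was 3.10 ± 1.86, 2.74 ± 0.34 and 1.62 ± 1.62, lower in the third in 2 of 3 series (exact permutation p = 0.269, adjusted 0.448). In A3_1 Nr2e1 was in 10 of 12 cells with a median of 342 TPM, in A3_2 in 8 of 18 with 0.73 TPM and in A3_3 in 4 of 18 with 0.045 TPM. gfp.exon was in 7 of 12, 9 of 18 and 4 of 18. In A2_3 gfp.exon was in 0 of 12 cells, which allows a share of up to 25% by the limit of 3 cells of the total (26.5% by the exact binomial interval), while the pool of that set held it at 138 TPM.

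Few genes followed Nr2e1 from cell to cell. Likeness was measured as the Pearson correlation of log2(TPM + 1) over 116 cells, after each title set and stage was brought to its own mean, for 3311 genes detected in at least 20% of cells. The points share libraries and their depth, and values are descriptions. The correlations had a median of 0.023, and the middle 95% ran from -0.175 to 0.233. The reporter itself was at 0.1996, at 0.314 among aNSC cells and 0.0626 among qNSC cells, and 159 genes stood above it. Without the adjustment for set and stage the value was 0.334.

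The 10 genes with the highest correlation were Appl2 (0.396), an endosomal adaptor, Fuca1 (0.396), a lysosomal fucosidase, Uqcc1 (0.346), an assembly factor of mitochondrial complex III, Prodh (0.335), proline dehydrogenase, Nell2 (0.335), a secreted neural protein, Mt1 (0.322), a metallothionein, Rarres2 (0.320), chemerin, Calr (0.320), a chaperone of the endoplasmic reticulum, Rpl35a (0.319), a ribosomal protein, and Eci1 (0.316), an enzyme of fatty acid oxidation. By Spearman's rho 7 of them were still among the 10 highest, with the number of detected genes as a covariate 7, and without the adjustment for set and stage 0. The lowest were Qars (-0.343), a tRNA synthetase, Canx (-0.341), a chaperone, Ncan (-0.310), a matrix proteoglycan, Rbx1 (-0.294), a ubiquitin ligase subunit, and Sez6 (-0.284), a neuronal membrane protein.

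For gfp.exon the 5 highest were Ezr (0.455), the membrane linker ezrin, Nip7 (0.387), a ribosome biogenesis factor, Usp16 (0.385), a deubiquitinase, Scp2 (0.376), a sterol carrier, and Phgdh (0.363), the first enzyme of serine synthesis. None of them was among the 10 of Nr2e1, and their correlations with Nr2e1 ran from -0.0453 to 0.194. Both rows had a weak correlation with the number of detected genes, 0.163 for Nr2e1 and 0.206 for gfp.exon.

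By list, 14 of 18 astroglial genes had a correlation with Nr2e1 above 0 (median 0.123) and 1 of 11 neuroblast genes (median -0.167), beside a median of 0.023 over all genes. With that median most genes lay above 0, and their exact share was not counted. Activation and progenitor genes had a median of 0.00205, with 6 of 11 above 0. Transcription factors of neural stem cells and their progeny had -0.0661, with 6 of 15. Of the corepressor genes 3 of 4 were above 0 (median 0.118), of the 2 nuclear receptors 1, and Aqp4 and Sirt1, which alone stood for the targets, were at -0.0445 and -0.0571. For gfp.exon the medians were 0.0532 for astroglial, 0.109 for activation and progenitor and -0.111 for neuroblast genes.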

How the data were processed

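The authors deposited a single table of gene TPM values. Per the submitters' processing notes, RSEM 1.2.15 and the mouse assembly mm9 were used. Annotation and depth are not given in the sources used here. Columns summed to between 710525 and 1000000 TPM and were used as deposited. Libraries correlated above 0.95 were averaged. limma 3.58.1 in R 4.3.3 was fitted on log2(TPM + 1) of all genes with a mean of at least 1, and p-values, adjusted by Benjamini and Hochberg's method, were called under 0.05. It was tested on simulated data. Permutation tests were exact, two-sided and run over title sets in Python 3.11.15 with SciPy 1.17.1. Fold changes are on the log2(TPM + 1) scale, which understates changes of low genes.

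Members and gene lists were chosen with earlier results of these data known. Named were both members, list genes called between stages with up to 4 others of highest level, and the genes with the highest and lowest correlations. Genes named in the 5-week pools were chosen after their values were seen. Beside the lists in the text, few of the oligodendrocyte, microglia, endothelial and mural, choroid plexus and erythroid genes could be tested: between stages 2, 0, 0, 0 and 0, of which 0 were called, and between A3_3 and A3_1 pools 9, 3, 1, 1 and 4, of which P2ry12 was higher and Otx2 lower. The replicate numbers in the titles name no shared animal. Some list genes named by the rule are not reported here.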

Additional observations from a re-analysis of the deposited data

Results flagged for a closer look

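Among the 10 7-month aNSC cells, 1 cell of A1_1 held Nr2e1 at 322 TPM, far above the next at 91.8 TPM, and 1 cell of A1_3 held gfp.exon at 581 TPM, above the next at 276 TPM. There were 4 such checks of groups of 4 to 10 libraries. The rate of 1 in 20 by chance holds for values that follow a normal curve. TPM values of single cells are skewed, with a median of 4.035 TPM for Nr2e1 in this group, so that rate does not hold here.

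The 14 libraries labelled filtered out entered no comparison. Nr2e1 was detected in 14 of them and gfp.exon in 14, against 52.6% and 43.1% of the labelled cells. Nr2e1 ran from 1.56 through a median of 65.4 to 778 TPM and gfp.exon from 4.69 through 164 to 1309 TPM, and these libraries held 4720 to 12188 detected genes, more than any labelled cell. The labels give all of them an age of 5 weeks, while 7 carry A1 titles and 7 A3 titles. Nr2e1 had a median of 20.3 TPM in the former and 151 TPM in the latter.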

How the results depend on the processing

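Of 38 results, 113 of 121 values under alternatives other than leaving out a sample kept their direction and side of the threshold. The stage difference of Nr2e1 changed sign to -0.24 with the log2 of the mean TPM and to -0.12 with quantile normalization; gfp.exon could not be fitted with the filter at a mean of 3. Without the block for age the stage values stayed at 0.80 (adjusted p = 0.303) and 1.32 (0.121), and with title sets as units and a replicate block they were 0.85 and 0.96. The other block fits, by title set and by pool number, ended 1 call: Nr2e1 between A3_3 and A3_2 pools, at -1.45 (adjusted p = 0.0849). That call was also lost with a pseudocount of 0.1 (-1.47) and with no filter (-1.45). Nr2e1 between pools and cells passed with means of log2 values (4.34). Co-detection at 10 TPM was 3.19 points and did not pass. Of the 10 genes most like Nr2e1, 0 were kept without adjustment for set and stage. In each case the cause was not tested.

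Counts of genes called between stages, 833 higher and 161 lower, were 0 and 0 with no filter (more genes tested) or with the log2 of the mean TPM, 403 and 370 with quantile normalization, and 93 lower with the filter at a mean of 3. With means of log2 values, 11566 genes were higher in pools and 15 lower, against 5699 and 120. With no filter 788 genes were higher in A3_3 than in A3_1 pools and 601 lower, against 1288 and 1045. The stage counts were 423 and 86 when 5-week cells were left out, and 294 and 93 when 7-week cells were. Without the first or the second A3_1 pool, 833 or 846 genes were higher in A3_3 and 527 or 548 lower.

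Leaving out each set or pool in turn, gfp.exon between 7 and 5 weeks in pools ran from -1.95 to 0.0107, the last without A2_3, and Nr2e1 between 7 months and 5 weeks from -0.24, without A3_3, to 1.00. Nr2e1 between A3_3 and A3_2 ran from -1.64 to -1.27, and the gap between pools and cells in gfp.exon against Nr2e1 from 1.39 to 2.73. TPM keeps no depth, so a value of 0 in a cell does not show that the RNA was absent.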
